A study of Drosophila melanogaster with 2 samples.

Results

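Peaks whose summits lie in GC-rich DNA were singled out from the binding map of CG43689, an uncharacterised Drosophila gene, and set against the rest of its peaks. The map came from chromatin immunoprecipitation and sequencing (ChIP-seq) of whole Drosophila melanogaster embryos aged 8 to 24 h, which carried a CG43689 transgene fused to eGFP. Chromatin had been sonicated to 200 to 800 bp and precipitated through the GFP tag. A second label field names CG43689 itself as the antibody, and the description that names GFP was followed here. There were 2 biological replicates of this 1 group, every embryo carried the tagged transgene, whose promoter the labels do not state, and no untagged or input library was analysed here. Whole embryos mix all embryonic cell types, so the cells behind a peak cannot be told apart. Peak lists on the dm6 assembly were deposited, in which each peak has a signal value on the authors' own scale, used here to rank and describe peaks. The main list was called on both replicates together and held 2088 peaks, 2062 of them on the 6 arms X, 2L, 2R, 3L, 3R and 4. A peak was called GC-rich when at least 47% of the bases from 50 bp left to 50 bp right of its summit, the summit window, were G or C, and 307 of the 2062 peaks passed. The other 1755 peaks are called the rest of the main list. The label holds by construction: GC content at the 307 summits had a median of 53.5% (47.5 to 73.3), against 31.7% at the rest.

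Most fly promoters and enhancers are bound by proteins that read short DNA words. The DNA replication-related element (DRE) is read by Dref and lies upstream of many housekeeping genes. M1BP (motif 1 binding protein) is a zinc finger protein found at the start sites of housekeeping genes, those for ribosomal proteins among them. CTCF is a zinc finger insulator protein whose site is itself GC-rich. Genes for cytoplasmic ribosomal proteins are transcribed strongly in nearly all cells and start at a pyrimidine-rich initiator, the TCT motif.

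The following stretches of dm6 are shown because they hold the 3 motifs that were commoner at GC-rich peaks than at other GC-rich candidate regions. Sequences are from the RefSeq FASTA of dm6, run 5′ to 3′ on the strand given, and carry the match in capitals with 10 bases to each side. A match is a description of letters, not a measured site. The CTCF pattern was AG, then A or G, then G or T, then GGCGC. The DRE was searched as TATCGATA and the M1BP motif as GGTCACACT, all on both strands, and no pattern contains another.
Pde1c, CTCF (2L:11816529-11816557, plus strand): gctggccgccAGGTGGCGCaattgtcccc
Eip75B, CTCF (3L:18019837-18019865, plus strand): aaccaccgtcAGATGGCGCcacacgctaa
Obp99b, CTCF (3R:29717095-29717123, minus strand): acctcgcgacAGATGGCGCcagttcagct
Sur-8, CTCF (3R:17402607-17402635, minus strand): gtctgcggccAGAGGGCGCcagctgtcaa
CG32264, CTCF (3L:3767965-3767993, minus strand): actcgaccacAGATGGCGCcactcagaga
HisRS, CTCF (X:18517607-18517635, minus strand): gtccgccgccAGAGGGCGCcgtctggaac
RpS10b, DRE (X:19597944-19597971, plus strand): cttaagataaTATCGATAtattgccggc
RpL36, DRE (X:629460-629487, plus strand): cgtgccttatTATCGATAggcgggcggg
RpL37-1, DRE (X:15139407-15139434, plus strand): gttgcgcgagTATCGATAgtttttgtcc
RpLP0, M1BP (3L:22076055-22076083, plus strand): ccatcgaagcGGTCACACTgggtgccgcc
RpL37A, M1BP (2L:5070980-5071008, plus strand): atcgagcggcGGTCACACTtttcgctctt

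Whole summit windows are shown for the strongest member, moody, for the ribosomal protein gene RpL23A, for Top1 and yps, which hold repeats of the 6-base words described further on, and for a strong intronic member in CG8745. The strand is that of the gene at the promoters and plus for CG8745, the bases come from the RefSeq FASTA of dm6, and capitals mark the 6-base words called higher in GC-rich peaks.
moody (X:2050242-2050342, minus strand): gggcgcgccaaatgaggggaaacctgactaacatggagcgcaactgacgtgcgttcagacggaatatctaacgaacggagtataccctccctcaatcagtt
RpL23A (3L:1668685-1668785, minus strand): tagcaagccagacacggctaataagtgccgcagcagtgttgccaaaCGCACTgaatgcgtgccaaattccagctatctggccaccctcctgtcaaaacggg
Top1 (X:15323361-15323461, plus strand): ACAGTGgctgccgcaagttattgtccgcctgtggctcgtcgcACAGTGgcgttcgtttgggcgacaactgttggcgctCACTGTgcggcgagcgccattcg
yps (3L:12125151-12125251, minus strand): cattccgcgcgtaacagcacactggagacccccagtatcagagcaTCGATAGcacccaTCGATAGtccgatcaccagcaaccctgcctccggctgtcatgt
CG8745 (3L:13862555-13862655, plus strand): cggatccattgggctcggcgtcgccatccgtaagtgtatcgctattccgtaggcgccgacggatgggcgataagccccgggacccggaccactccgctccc

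GC-rich summits were scarcer in the main list than among the candidate regions from which it was drawn. They made up 14.9% of the main list (Wilson 95% interval 13.4 to 16.5), against 47.6% of the 146366 ranked candidates on the arms that are not in it (Fisher's exact test, two-sided, odds ratio 0.193, p = 8.95e-214). Put the other way, 1.39% of all 148428 ranked candidates were in the main list, and of the 69921 GC-rich ones 0.439% were. In the lists called on each replicate alone, 129 of 1243 peaks (10.4%) were GC-rich in replicate 1 and 121 of 1244 (9.73%) in replicate 2. All p-values here describe how peaks are placed in these lists, not variation between animals, and neighbouring peaks are not independent of each other. Read counts per peak are not in the lists, the depth is unknown, and intervals on shares cover counting error only.

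The GC-rich stretch was local, in the members as in GC-rich candidates outside the main list. Mean GC content was 53.8% at the 307 summits, and 41.7% at 400 bp to either side. In the rest of the main list the summits averaged 31.7% and the flanks 43.8%, so the flanks of the groups were closer than the summits that chose them. At 200 of the 307 GC-rich peaks (65.1%) the summit window held more G and C than both of its flanks, as did 129 of the 1755 others (7.35%). GC-rich ranked candidates that are not in the main list averaged 54.1% at the summit and 43.9% at 400 bp to either side. The summit values follow from the choice of members, which also favours a fall toward the flanks, and are given as a description. At the edge of the rule, 32 members had 48 G or C bases in the summit window (47.5%) and a median signal of 69.7, and the 40 peaks that just missed it had 47 (46.5%) and a median signal of 75.8.

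**Figure D1:**
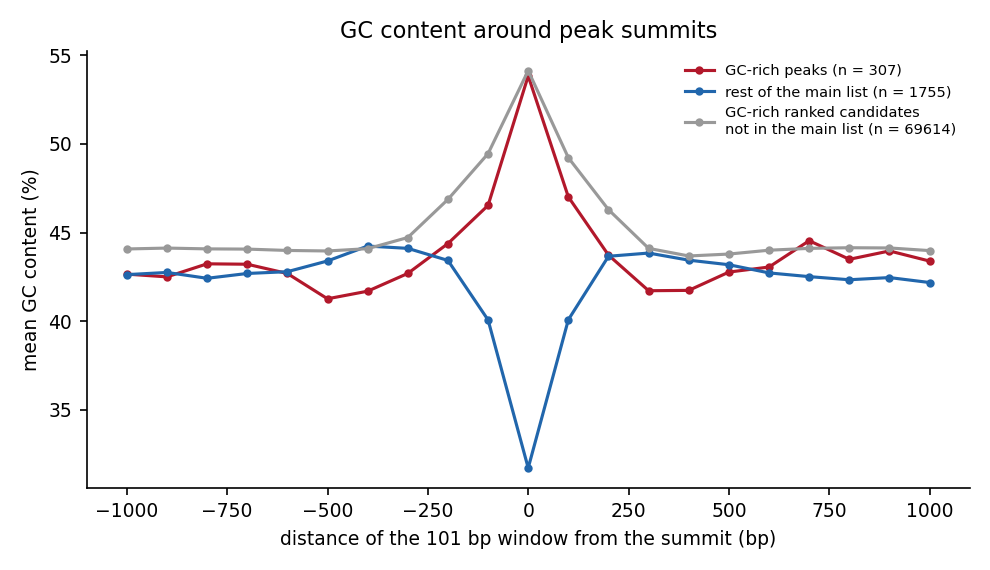
Mean GC content (%) of windows of the size of the summit window against their distance from the summit (bp), for the 307 GC-rich peaks, the 1755 other main peaks and the 69614 GC-rich ranked candidates that are not in the main list. The GC-rich peaks stand at 53.8% at the summit and the rest at 31.7%, and at 400 bp the means are 41.7% and 43.8%.

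GC-rich members were mostly weak peaks. Their signal had a median of 65.4 (quartiles 57.1 and 86.9, range 2.14 to 337), against 93.8 in the rest and 20.05 among the GC-rich ranked candidates that are not in the main list. Signal reached the median of the whole list at 72 members (23.5%) and at 54.6% of the rest (odds ratio 0.254, adjusted p = 1.15e-23, Fisher's exact test with Benjamini-Hochberg adjustment over 18 shares). With the main list cut by signal into 5 bins of like size, the GC-rich share was 34.5, 17.0, 9.95, 8.23 and 4.84% from the weakest bin to the strongest. Only 7 members (2.28%) were narrower than the usual 300 bp, as were 168 of the rest (9.57%). These 7 were all among the 12 strongest members, with signals of 168 to 337.

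Fewer GC-rich members were supported by the single-replicate lists. A thresholded peak of both replicates overlapped 66 members (21.5%), against 811 of the rest (46.2%; odds ratio 0.319, adjusted p = 5.65e-16, Fisher's exact test). Another 71 members overlapped a peak of 1 replicate list and 170 of neither. Support moved with signal in both groups. Of 4 bins of the list by signal, the strongest had 26 of 26 members and 98.2% of the rest in both lists, and the weakest 4.17% and 3.16%. Among peaks under the median signal, a split made after the data were seen, the direction turned: 5.96% of members and 4.52% of the rest were in both lists (adjusted p = 0.659, Fisher's exact test). At or above the median the shares were 72.2% and 80.8%, a gap of -8.59 percentage points that no longer passed the threshold. Almost every member, 305 in replicate 1 (99.3%) and 302 in replicate 2 (98.4%), did overlap a ranked candidate. So did 99.5% and 98.6% of the rest, so this does not set the members apart.

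**Figure D2:**
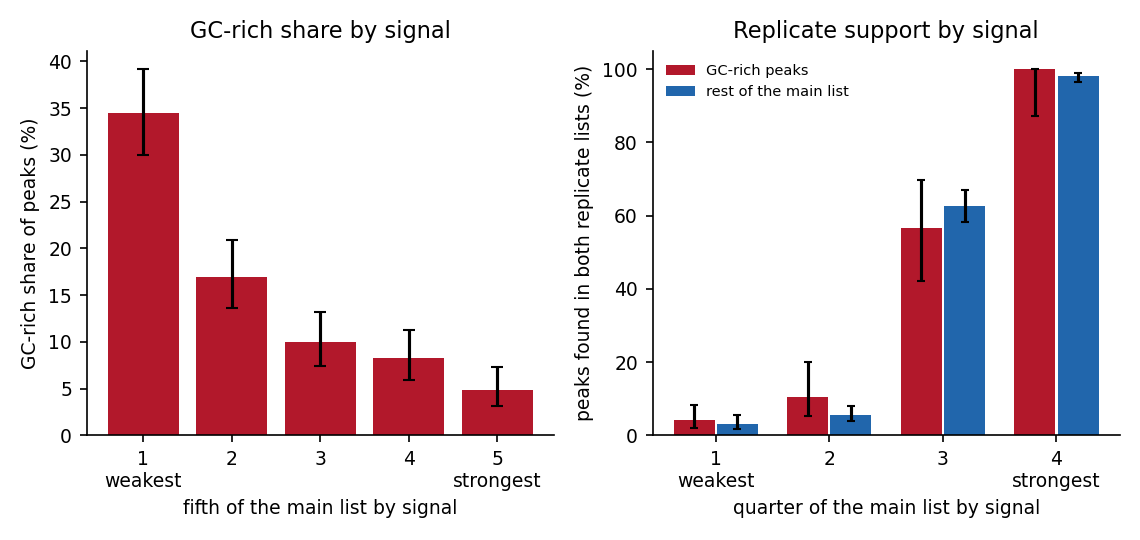
Left, the GC-rich share (%) of the main list in 5 bins by signal, which is 34.5% in the weakest bin and 4.84% in the strongest. Right, the share (%) of GC-rich peaks and of the rest found in both replicate lists, in 4 bins by signal; bars are shares and whiskers Wilson 95% intervals, and the groups stand at 4.17% and 3.16% in the weakest bin and at 100% and 98.2% in the strongest.

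Compared with the rest of the main list, 8 of the 18 shares tested passed the threshold of 0.05 (44.4%), those of signal and replicate support included. Coding sequence stood out: 44 GC-rich summits (14.3%) lay in coding sequence and more than 500 bp from any start site, against 8 of the rest (0.456%; odds ratio 36.5, adjusted p = 1.14e-28, Fisher's exact test). Of ranked candidates in coding sequence 85.3% passed the GC rule, so the choice of members itself favours that class. Introns held 25.7% of the members and 38.6% of the rest (adjusted p = 4.30e-05, Fisher's exact test). Promoters, taken as 500 bp to either side of a start site, held 134 members (43.6%) and 46.6% of the rest, a difference that did not pass (adjusted p = 0.488, Fisher's exact test). On chromosome X lay 11.7% of members and 19.4% of the rest, and on 2R 25.4% and 17.2% (adjusted p = 0.00263 for each, Fisher's exact test). The 2R difference passed in each replicate's own list, at 34.1% and 16.7% in replicate 1 and 28.9% and 16.6% in replicate 2, while the X and intron differences passed in neither. No member lay on chromosome 4, where a count of 0, taken as at most 3 counts of the 307, allows a share of up to 0.977%, and no other main peak did.

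The coding members were weak. Their median signal was 61.2, and 1 of the 44 was in both replicate lists. That one lay in otp, which encodes a homeodomain transcription factor (2R:20884432-20884731), with a signal of 258 in the main list and 122 and 141 in the lists of replicates 1 and 2. The next in strength lay in tup, a LIM homeodomain gene, with a signal of 76.6, and it was in neither replicate list. Among peaks found in both lists the coding shares were 1.52% of members and 0.123% of the rest, and among peaks at or above the median signal they were 1.39% and 0.104%, so the call was lost in both subsets. In the lists called on each replicate alone it held, at 6.202% of GC-rich peaks and 0.180% of the rest in replicate 1 (adjusted p = 7.45e-06, Fisher's exact test) and 6.61% and 0.0890% in replicate 2 (adjusted p = 9.63e-07, Fisher's exact test). Coding sequence is itself GC-rich in the candidates: 85.3% of ranked candidates in coding sequence passed the GC rule, as did 84.6% of the main peaks there.

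Against GC-rich candidates that did not enter the main list, which share the GC rule, the picture at promoters and in coding sequence was different. Of 13 shares 5 passed (38.5%). Promoters held 43.6% of the members and 13.8% of the 69614 candidates (odds ratio 4.86, adjusted p = 7.30e-36, Fisher's exact test). Coding sequence held 14.3% of the members and 33.1% of the candidates (odds ratio 0.339, adjusted p = 7.72e-13, Fisher's exact test), and intergenic DNA 12.7% and 21.9% (adjusted p = 2.34e-04). The X share was 11.7% in members and 17.3% in candidates, and the 2R share 25.4% and 19.4% (adjusted p = 0.0293 for each, Fisher's exact test). In replicate 1 alone, X turned to 17.8% of the GC-rich peaks and 16.5% of their candidates, without passing the threshold.

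**Figure D3:**
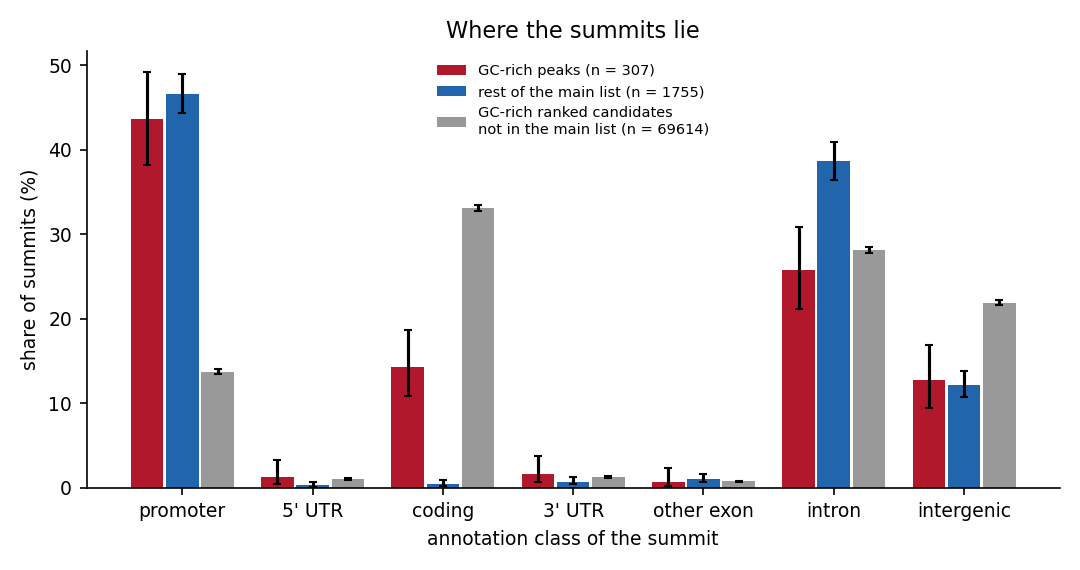
Share of summits (%) in each annotation class for the 307 GC-rich peaks, the 1755 other main peaks and the 69614 GC-rich ranked candidates that are not in the main list; whiskers are Wilson 95% intervals. In that order promoters hold 43.6, 46.6 and 13.8%, and coding sequence 14.3, 0.456 and 33.1%.

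Fewer promoter members than other promoter peaks lay upstream of the start site. Their median position, which was not tested, was 25 bp upstream (-25), against 119 bp upstream (-119) in the rest. Within 100 bp of the start site were 66 of the 134 (49.3%) and 250 of 818 others (30.6%), also not tested. Upstream of the start site lay 81 members (60.4%) and 672 of 818 others (82.2%; odds ratio 0.332, adjusted p = 3.45e-07, Fisher's exact test). The gap was seen among weak peaks: below the median signal 46 of 92 members and 78.3% of the rest were upstream (adjusted p = 2.95e-06, Fisher's exact test), and at or above it 83.3% and 84.6% were, with the call lost. In the replicates' own lists the shares were 70.1% and 83.8% in replicate 1 (adjusted p = 0.0301, Fisher's exact test) and 78.3% and 83.9% in replicate 2, where the call was lost. Divergent promoters held 38 of the 120 members at protein-coding start sites (31.7%) and 327 of 765 others (42.7%; adjusted p = 0.0496, Fisher's exact test), a call that was lost in each replicate's own list. Among ranked candidates at promoters that are not in the main list, 30.7% of the GC-rich ones and 51.1% of the others were upstream. Fewer GC-rich summits were thus upstream outside the main list too, a difference that was not tested.

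The 25 named genes with the strongest GC-rich promoter peaks had signals of 109 to 337. Of these peaks 22 were upstream and 23 were in both replicate lists. The strongest peak of all 307 lay 172 bp upstream of moody (FBgn0025631; X:2050195-2050353), which encodes a G protein-coupled receptor of the glia that form the blood-brain barrier. Its signal was 337 in the main list, and 167 and 169.9 in the lists of replicates 1 and 2. Next came CG13501 (2R:22061734-22061869; signal 285), with 123 and 156 in the replicate lists. The peak at RpS27, a gene for a protein of the small ribosomal subunit, covered 3R:25247439-25247595 with its summit 5 bp upstream and had a signal of 284, with 144 and 134 in the replicates.

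Other named promoters belonged to several kinds of gene. Top1, the gene for DNA topoisomerase I, had a signal of 163, with 85.6 and 78.6 in the lists of replicates 1 and 2. At yps, which encodes a Y-box RNA-binding protein, the signal was 159, with 105 and 56.0 in the replicates, the replicate 1 value being the higher. Dll, the homeodomain gene of the limbs, had 109.8 in the main list, with 49.8 and 59.9. The translation elongation factor gene eEF1alpha1 had 109, with 55.1 and 56.5. The germline gene bgcn had 132, with 77.1 and 54.2, and Obp99b, an odorant-binding protein gene, had 120.3, with 52.9 and 69.4. The sodium channel gene NaCP60E, whose peak also lies at the start site of RpL41, had 156, with 100.8 and 54.5. CG7737 had 235, with 107 and 133, and CG2811 had 145, with 95.4 and 55.7, so neither replicate was the higher throughout. Further named genes were CG12299 (144), CG3253 (121), CG12974 (117) and CG3358 (117). The values of replicate 1 and replicate 2 come from separately called lists and are given side by side only.

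Of these 25 genes 10 encode cytoplasmic ribosomal proteins, and the NaCP60E peak, also at the start site of RpL41, made an eleventh such promoter. Of the 88 cytoplasmic ribosomal protein genes, 37 had a main summit within 500 bp of a start site, and at 23 of those (62.2%) it was GC-rich. Over all 1166 protein-coding genes with such a main summit, 144 (12.3%) had a GC-rich one, and they were 1.38% of the 10423 genes with a ranked candidate there. No test was made of this list, which was chosen with earlier results of these data known. The share depends on how GC content is measured: with a minimum of 50% it was 29.7%, and with GC content taken over 100 bp to either side of the summit 21.6%.

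The 23 ribosomal protein members had signals of 57.2 to 284 with a median of 104, against a median of 66.6 for the 97 other GC-rich peaks at coding start sites. Their summits hugged the start site, at a median of 19 bp, with 22 of the 23 within 100 bp and 20 (87.0%) upstream. The other 97 lay at a median of 143 bp, with 52.6% upstream. Of the 750 main peaks below the GC minimum at other coding start sites, both replicate lists held 53.1%. They held 26.8% of the 97, and 12 of the 23 (52.2%). The strongest after RpS27 were RpL23A (signal 209; 112 and 91.1 in the lists of replicates 1 and 2), RpS28b (185; 96.2 and 87.8), RpL24 (172; 84.7 and 87.3) and RpL22 (168; 94.4 and 73.5). These 4 had a peak in each replicate list. RpS10b had a signal of 139 (78.1 and 58.8 in the replicates), RpLP0 132 (76.5 and 59.5) and RpL8 119 (64.2 and 46.6), each with the higher value in replicate 1. RpS4 (123) and RpS19a (114) were in the replicate 1 list alone, at 71.2 and 65.5. So were RpS16, RpS7, RpS23, RpL19, RpL36 and RpS14b, while no ribosomal protein member was in the replicate 2 list alone. At RpS4 replicate 2 had no overlapping ranked candidate either. Where both lists held the peak, only RpL24 had the higher value in replicate 2. Lowest were RpL31 (71.2), RpL4 (65.4) and RpS14b (57.2), which has a near-identical neighbour in RpS14a, and how reads shared by such copies were counted is not given in the sources used here.

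At the remaining 14 ribosomal protein genes the main summits, 15 in number, were below the GC minimum. Their median GC content was 40.6%, against 49.5% at the 23, and their median signal was 119.7. They lay at a median of 59 bp from the start site, with 14 of the 15 upstream. Both replicate lists held 11 of the 15 (73.3%). RpL34b (204), RpL32 (201.4) and RpL14 (179) were the strongest of the 15. RpS20 and RpS12, at 46.5% GC, missed the rule by 1 base.

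A pyrimidine-rich TCT word, searched as 2 pyrimidines, CTTT and 2 pyrimidines on the strand of the gene, was in the summit window of 13 of the 23 ribosomal protein members (56.5%). It was in 4 of the 97 other GC-rich peaks at coding start sites (4.12%), and in 2.68% of the 8198 GC-rich ranked candidates there. Among main peaks below the GC minimum it was in 5 of the 15 at ribosomal protein genes. The summit window reaches only 50 bp to either side. Within 100 bp of the start site lay 22 of the 23 summits, 37 of the 97 and 1698 of the 8198. These shares are thus not matched for distance to the start site, and the part that distance plays was not tested. This word was looked for after the ribosomal protein genes had been seen.

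**Figure D4:**
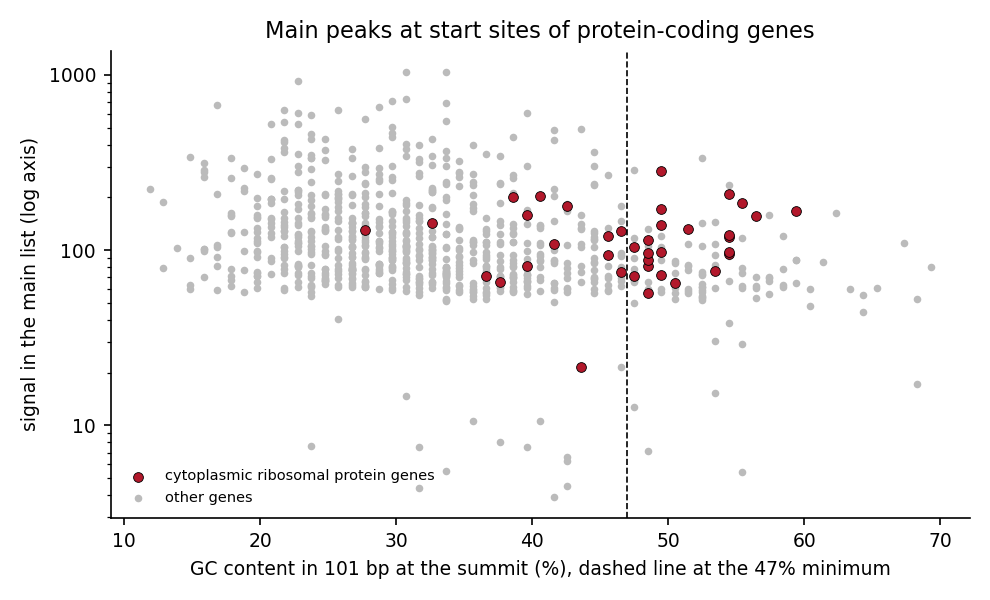
Signal in the main list (log axis) against GC content (%) of the summit window, for main peaks within 500 bp of a protein-coding start site; each point is a peak, filled red for cytoplasmic ribosomal protein genes. Of these 38 red points 23 lie right of the 47% line, with a median signal of 104.

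The other gene lists held from 0 to 2 genes with a GC-rich promoter summit each, to be read beside the 12.3% over all genes with a main summit. Mitochondrial ribosomal protein genes, whose main peaks number 10 genes, had 0 GC-rich ones, as did the Polycomb and trithorax (3 genes with a main summit), heat shock and chaperone (4), muscle (2), cuticle (1) and histone and cell cycle lists (1). Of 7 insulator and promoter-binding factor genes with a main summit, 2 (28.6%) had a GC-rich one: pzg (117), whose peak lies nearer to CG12974, and Dref (104), whose peak is that of RpL13. Of 6 translation factor genes there was 1 (16.7%), eEF1alpha1. Of 7 segmentation and homeobox genes there were 2 (28.6%), Dll and hry, the pair-rule repressor gene, with 30.3 and in neither replicate list. Of 5 neuronal and glial genes there was 1 (20%), moody. These counts are too small to set a list apart from all genes.

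The strongest members away from promoters lay in exons and introns, and were in both replicate lists down to the strongest intergenic one. After the otp peak came an intronic peak of CG4622 (2R:24539349-24539444; signal 226, with 104 and 127 in the lists of replicates 1 and 2), 568 bp from the start site of ITP, an ion transport peptide gene. An intron of S (Star), a gene of epidermal growth factor signalling, held a peak of 171 (2L:1072183-1072482), with 86.4 and 86.3 in the replicates. Introns of CG8745 (3L:13862455-13862754; 156, with 68.0 and 86.8) and CG10237 (2L:19439512-19439811; 152, with 81.1 and 80.0) held the next. A peak of 149 covered the 3' UTR of the phosphodiesterase gene Pde1c (2L:11816407-11816706), with 67.2 and 80.0 in the replicates. Introns of ush, a zinc finger gene, and elav, a neuronal RNA-binding protein gene, followed at 145 (71.3 and 70.05 in the replicates) and 142 (69.6 and 75.1). They fell outside the naming rule, which caps introns at 4, and were added after their values were seen. A peak of 142 lay in the 5' UTR of the F-box gene Fbl6, and the strongest intergenic one (121) was 4532 bp from CG3092. GC content was highest at members of modest signal: 73.3% in coding sequence of CG1648 (56.4), and 69.3% at the promoter of Gnpat (80.3) and in an intron of Liprin-gamma (59.2).

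Of 27 motifs searched within 50 bp of the summit, 3 differed between the members and the GC-rich ranked candidates (11.1%), and all 3 were higher in the members. The CTCF pattern was in 12 members (3.91%), against 0.424% of the candidates (odds ratio 9.56, adjusted p = 4.16e-07, Fisher's exact test). The DRE was in 6 members (1.95%), against 0.0833% (odds ratio 23.9, adjusted p = 5.57e-06, Fisher's exact test). The M1BP motif was in 3 (0.977%), against 0.0603% (odds ratio 16.3, adjusted p = 0.00934, Fisher's exact test). In the rest of the main list, which was not tested, 0.798% of summits held the CTCF pattern, 0.969% the DRE and 0.285% the M1BP motif. At an unadjusted p under 0.05, 4 motifs differed.

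**Figure D5:**
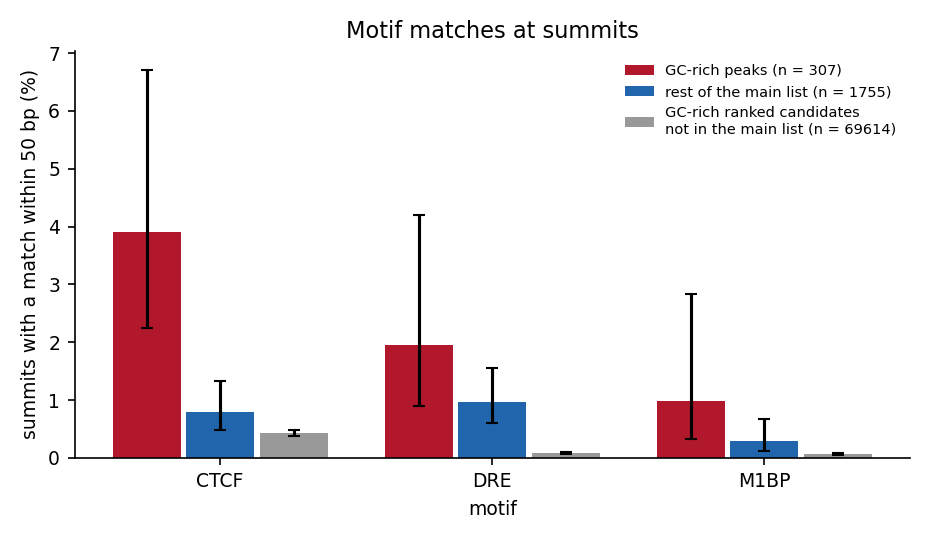
Share of summits (%) with a match within 50 bp, for the 307 GC-rich peaks, the 1755 other main peaks and the 69614 GC-rich ranked candidates that are not in the main list; whiskers are Wilson 95% intervals. The GC-rich peaks stand highest for each motif, at 3.91% for CTCF, 1.95% for the DRE and 0.977% for M1BP. For the DRE and M1BP their intervals overlap those of the other main peaks.

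CTCF matches lay mostly away from promoters. Of the 12 members with one, 5 were in introns, 3 at promoters, 2 in coding sequence and 2 in UTRs. Their median signal was 102, and 8 were in both replicate lists. The strongest were those of otp (258), Pde1c (149), Eip75B, the gene of an ecdysone-induced nuclear receptor (124), Obp99b (120.3), CG3358 (117) and the 5' UTR of Mef2, a muscle transcription factor gene (116). Further ones lay in CG43693 (88.8), at Sur-8, a scaffold gene of Ras signalling (85.3), and in CG32264 (82.1). The 3 in neither replicate list had signals of 68.8 (HisRS), 65.7 and 59.2 (Trim9). Matches were centred 2 to 43 bp from the summit, with a median of 28.5 bp. In replicate 1 alone it was in 7.75% of GC-rich peaks and in replicate 2 alone in 8.26%, against 0.403% and 0.459% of their candidates. Among members in both replicate lists 12.1% held it (adjusted p = 1.45e-08, Fisher's exact test), and within promoters alone, an alternative chosen after seeing the data, 2.24% of members and 0.439% of candidates did, without passing (adjusted p = 0.215).

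DRE and M1BP matches were at promoters, and 8 of those 9 promoters belonged to ribosomal protein genes. Main peaks below the GC minimum at such genes held these motifs too. The DRE was in 5 of those 15 peaks and in 5 of the 23 GC-rich ones, the M1BP motif in 1 and 3, which was not tested. The DRE members were NaCP60E and RpL41, which share a peak (156), RpS10b (139), RpL19 (81.7), RpL36 (75.7), RpL37-1 (71.9) and the autophagy gene Epg5 (66.2). The M1BP members were RpLP0 (132), RpS23 (94.7) and RpL37A (87.4). Within promoters alone both calls held. There 4.48% of members and 0.261% of candidates held the DRE (adjusted p = 9.26e-05, Fisher's exact test). For the M1BP motif the shares were 2.24% and 0.188% (adjusted p = 0.0385, Fisher's exact test). Position within promoters was not matched: the median summit lay 25 bp upstream (-25) in members and 164 bp downstream (164) in candidates. In replicate 1 alone 3.10% of GC-rich peaks held the DRE and 2.33% the M1BP motif, and in replicate 2 alone 2.48% and 0.826%, where the M1BP call was lost. They rest on few peaks: with a GC minimum of 50% both calls were lost, and with GC content taken over 100 bp to either side of the summit 0 members and 0.0517% of candidates held the M1BP motif.

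Among all 6-base words, counted with their reverse complements, 7 were more frequent in the members than in the GC-rich candidates (0.337%) and 7 less frequent (0.337%). ACAGTG was in 9.77% of members and 4.12% of candidates, and CGATAG in 6.19% and 2.15% (adjusted p = 0.0158 for each, Fisher's exact test). The others that were higher were AAACAG (11.7%, against 5.64% of candidates), AGTGCG (10.7%, against 5.45%), AACCGC (9.45%, against 4.42%), TATCGA (6.19%, against 2.41%) and ATACCG (5.86%, against 1.88%). The ATACCG difference turned to -0.215 percentage points without replicate 1, at 1.65% of GC-rich peaks and 1.87% of candidates. CGATAG and TATCGA share letters with the DRE, and in replicate 1 alone they were in 10.9% and 12.4% of GC-rich peaks, with calls that were lost in replicate 2 alone (6.61% each). At least 1 of the 7 was in 136 members (44.3%) and 22.6% of candidates, a share that follows from how the words were picked. They occurred at 17 of the 23 ribosomal protein members and at 49 of the 97 other members at coding start sites. Strong peaks with such words were CG7737, Top1 and the tendon transcription factor gene sr for ACAGTG, RpS28b and yps for CGATAG, CG2811 and RpLP0 for ATACCG, and the noncoding snoRNA host gene Uhg4 (signal 220.2) for AAACAG.

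Of the 7 words that were lower in members, GCAGGA was in 3.91% of members and 10.5% of candidates (adjusted p = 0.0158, Fisher's exact test). The others were CCAGGA (3.26%, against 9.16%), CAGGAC (2.28%, against 7.48%), ATCCTG (1.63%, against 6.71%), CTGGAC (1.63%, against 6.53%), ACTCCT (0.651%, against 4.96%) and TCCTCA (0.651%, against 4.90%). The count of called words moved with the choice of peaks: 17 were higher and 2 lower in replicate 1 alone, and 2 higher and 1 lower in replicate 2 alone. With peaks in both replicate lists 0 were called either way by Fisher's exact test (126 higher and 25 lower at an unadjusted p under 0.05), and 0 with peaks at or above the median signal (133 and 34). With both groups held to 47 to 55% GC, 1 was called higher and 0 lower, against 71 lower at an unadjusted p under 0.05. Within promoters alone 5 were called higher. Among them were CGATAG (11.9%, against 2.77% of candidates, adjusted p = 0.00311, Fisher's exact test), AACCGC (13.4%, against 4.76%) and TATCGA (10.4%, against 2.97%). Position within promoters was not matched here either.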

How the data were processed

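Peak lists came from anti-GFP ChIP-seq of 2 biological replicates of whole CG43689-eGFP embryos, deposited on dm6, per the labels. The authors deposited for each peak a score, capped at 1000, a signal value and a summit offset, and per the deposited file descriptions the lists are ranked or thresholded by the irreproducible discovery rate (IDR), for each replicate and for both together. Neither the labels nor the lists name the aligner, the peak caller or the scale of the signal. The score (830 to 1000 in the main list) was not used to choose peaks.

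Summits were placed on the RefSeq FASTA of dm6, and their class came from the Ensembl release 115 annotation in the order promoter (500 bp), UTR, coding, other exon, intron, intergenic. Of 10 columns a list holds, those for score, signal and offset were read. Shares were compared by two-sided Fisher's exact tests, adjusted by Benjamini-Hochberg within each family at 0.05. As an alternative, matches at summits were compared by exact McNemar tests with 1 flank, the window 400 bp to the right of the summit. The tests used scipy 1.17.1, numpy 2.4.6 and pandas 2.3.3 in Python 3.11.15. Only the test of 6-base words was tried on simulated data, with each word drawn independently, unlike words that overlap and peaks that neighbour each other. Intervals are Wilson 95% intervals. A peak counted as found in a replicate list when it overlapped one there by at least 1 bp. Genes named are the 25 protein-coding genes nearest to the strongest GC-rich promoter summits, 8 strong peaks outside promoters (taken by signal, at most 4 intronic, 4 intergenic and 2 of any other class), up to 4 genes of each of 11 lists, up to 4 peaks of each called motif or word, and the 3 highest in GC; all ribosomal protein members, all motif members the next strongest coding peak, ush and elav were named after their values were seen. The members and gene lists were chosen with earlier results of these data known. Peaks off the 6 arms (26) were left out. The gene symbols GAF, Pita, Z4, Zw5, eIF5A, His1, His2A, His2B, His3 and His4 did not match the annotation and give no value.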

Additional observations from a re-analysis of the deposited data

How the results depend on the processing

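No paired analysis was possible because the study has 1 group. Of 227 values of 18 main results under other settings, 172 were unchanged, 16 lost their call, 36 moved and 3 reversed. Of 259 values of 21 single features (called motifs, words and lesser shares), 111 were unchanged, 145 lost their call and 3 reversed. Unchanged means the same direction and side of the threshold for a tested difference, and a like size for a count. For the ribosomal protein share it means inside its Wilson interval. Shares are differences in percentage points, members minus comparison group, and the cause of each move was not tested. With peaks in both replicate lists, 2 shares were called against the rest and 3 against candidates; the differences from the rest were 5.08 for promoters (opposite in sign to the whole list), 1.39 for coding, -3.11 for introns, -3.93 for X and -1.74 for upstream, and 0 words were called either way. At or above the median signal, 1 share was called, with 5.67 for promoters (again opposite), 1.28, -8.65, -3.35 and -1.22 for the same 4 features, -8.59 for both lists and 0 words either way. Below the median, a setting chosen after seeing the data, 4 shares were called and both lists turned to 1.43. With the strongest peak of each 10 kb run, also chosen after seeing the data, X was -4.72 and 3 shares were called against candidates, as with the conservative list. A GC minimum of 45% called 3 shares against candidates, 15 words higher and 13 lower; 50% gave 3 words lower, 1 motif and a ribosomal protein share of 29.7%. GC content over 20 bp to either side gave 14 words higher and 11 lower. Over 100 bp it gave -4.97 for X, 3 shares against candidates, 21.6% for ribosomal protein genes, 2 words each way, 1 motif, and -0.0517 for M1BP, a reversal. Both groups at 47 to 55% GC gave 1 word higher and 0 lower, and promoters alone (chosen after seeing the data) 0 lower by Fisher's exact test (70 at an unadjusted p under 0.05). Searching 100 bp to either side called 39 words higher, 38 lower and 5 motifs. Windows 400 bp to the right of the same summits are left poorer in G and C by the GC rule. Against them 3 motifs were higher at the summits (CTCF, Sp or Klf, Snail E-box) and 3 lower (TATA, GATA, homeodomain). The DRE (1.95% of summits, 0.326% of flanks) and the M1BP motif (0.977%, 0.651%) lost their calls there. CTCF kept its call, but the windows differ in GC content, so that comparison gives it no support. In the replicates' own lists the ranges were -7.93 to -6.78 for introns, -7.35 to -1.11 for X, -13.7 to -5.53 for upstream, 4 to 7 shares called against the rest and 3 to 5 against candidates, 2 to 17 words higher and 1 to 2 lower. X against candidates ranged from -3.33 to 1.33 and ATACCG from -0.215 to 3.53, each turning in 1 replicate: X without replicate 2 and ATACCG without replicate 1. The upstream difference lost its call without replicate 1. Peaks rest on 1 combined list and its ranks, so depth per peak sets no interval here.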
